A study of Homo sapiens with 4 samples.

Results

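Places where binding sites of SMRC1 crowd together in the genome of HepG2, an established cell line from a human liver tumour, were examined for their layout and for the NFIC and SATB1 sites they hold. SMRC1 is the database name of SMARCC1 (BAF155), a core scaffold subunit of the SWI/SNF complexes. A cluster was defined by joining SMRC1 peaks on the same chromosome whenever the gap between neighbours was at most 12.5 kb, and by keeping joined regions with 5 or more SMRC1 peaks. This gave 581 clusters of 18423 joined regions, the rest being 5430 regions of 2 to 4 peaks and 12412 single peaks. The clusters held 3618 of the 29441 SMRC1 peaks (12.3%) and spanned 16.9 Mb, or 0.544% of the genome. All coordinates are hg19.

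The study made ChIP-seq libraries from chromatin of untreated HepG2 cells crosslinked with 1% formaldehyde for 10 min, with 1 library for each of its antibodies against SMRC1, NFIC and SATB1. An input library is also named in the labels, and its reads were not analysed here. The 3 deposited peak lists, with 29441 SMRC1, 13643 NFIC and 3296 SATB1 peaks, were used. No antibody had a replicate, so no difference below could be set against a replicate spread, and no p-value is given. Intervals are 95% intervals that cover counting error only, over peaks or regions of 1 library that are not independent replicates. Total read numbers are not in the lists, and a deeper library gives more called peaks. The lists hold no expression values, so the HepG2 label was not checked against marker genes.

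SWI/SNF complexes use the energy of ATP to slide and evict nucleosomes, and they act at promoters and enhancers. Closely spaced enhancers are a known feature of the loci of highly transcribed and cell-identity genes, and a joining distance of 12.5 kb is customary for grouping them. NFIC belongs to the nuclear factor I family of transcription factors, which bind DNA as dimers and regulate many hepatocyte genes. SATB1 is a chromatin organiser that binds AT-rich DNA and is best known from thymocytes.

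SMRC1 peak positions chose the clusters, so the values of SMRC1 peaks in this and the following paragraph are a description. The number of regions fell off steeply with size. There were 245 clusters of 5 peaks, 164 of 6, 84 of 7, 41 of 8, 20 of 9 and 27 of 10 or more, with a maximum of 16. The median cluster spanned 27.5 kb (quartiles 20.5 and 35.3 kb, range 5.47 to 107 kb) and held 6 peaks, or 2.18 peaks per 10 kb. Peaks covered 17.1% of the cluster sequence, and gaps between neighbouring peaks had a median of 3888 bp (quartiles 1281 and 7472). In regions of 2 to 4 peaks the median gap was 3986 bp, close to that of clusters. Just inside the threshold, the 245 clusters of 5 peaks had a median span of 22.9 kb. Just outside it, the 599 regions of 4 peaks had a median span of 16.7 kb.

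**Figure D1:**
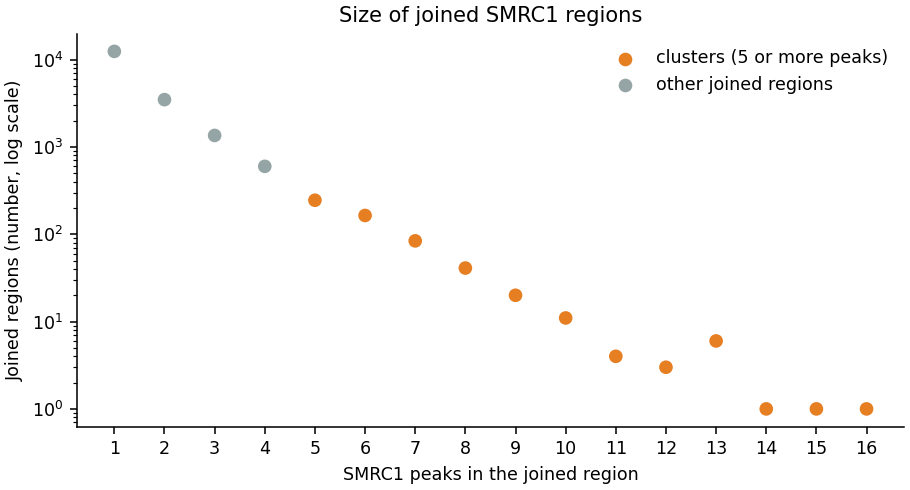
Number of joined SMRC1 regions (vertical axis, log scale) by the number of SMRC1 peaks they hold (horizontal axis). Orange points are the 581 clusters and grey points the other joined regions; the numbers go down from 12412 single peaks to 245 clusters of 5 peaks and 1 cluster of 16.

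SMRC1 peaks in clusters were wider than others and held more reads over a higher background. Their median width was 685 bp, against 622 bp in regions of 2 to 4 peaks and 573 bp in single peaks. Their median −log10 q, the deposited measure of peak significance, was 9.64 in clusters, 8.85 in regions of 2 to 4 and 8.29 in single peaks. The deposited fold, the reads at the summit over the local background, ran the other way, with medians of 3.95, 3.99 and 4.19. Local background, solved from the deposited fold and p-value and counted in fragments as the peak caller scales them, had medians of 9.0, 8.11 and 7.0. Among the 100 SMRC1 peaks with the highest −log10 q, 14 lay in clusters, near the 12.3% of the whole list. Among the highest 1000 it was 155 (15.5%). Within a cluster the highest SMRC1 fold was a median of 2.35 times the lowest (quartiles 1.95 and 2.85). Such a ratio tends to rise with the number of peaks by construction, and none is given here for other regions. The strongest peak by −log10 q had a median width of 1040 bp, and the weakest one of 432 bp.

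The 3 clusters with the most SMRC1 peaks lay on chromosomes 2, 6 and 17. The largest by number spanned chromosome 2 at 43371394 to 43458914 (band 2p21) and held 16 SMRC1 peaks with folds of 2.19 to 5.71. Its strongest peak, 2665 bp wide at 43452777 to 43455441, carried NFIC and SATB1 sites. In all, this cluster held 7 NFIC summits, 2 of them between SMRC1 peaks, and 4 SATB1 summits. The longest cluster, on chromosome 6 at 47062063 to 47169303 (6p12.3), spread 15 SMRC1 peaks over 107 kb and covered 10.8% of it, with 3 NFIC and 0 SATB1 summits. The cluster on chromosome 17 at 53342104 to 53408239 (17q22) had 14 SMRC1 peaks, 5 NFIC summits and 1 SATB1 summit. Its strongest SMRC1 peak was 4336 bp wide.

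Clusters with 13 SMRC1 peaks differed widely in what else they held. The one on chromosome 19 at 1244603 to 1304826 (19p13.3) had 7 NFIC and 6 SATB1 summits, and 6 of its 13 SMRC1 peaks overlapped both other proteins. All of those summits lay in its first 31.2 kb, and the 4 SMRC1 peaks beyond had neither protein. An NFIC peak there, at 1275406 to 1276284, had a fold of 12.7, while the other 6 NFIC peaks of the cluster had folds of 2.22 to 5.03. On chromosome 1 at 234735024 to 234779509 (1q42.3), 13 SMRC1 peaks covered 45.3% of 44.5 kb. The strongest of them, 4183 bp wide with a fold of 10.8, contained 4 NFIC and 2 SATB1 summits. By contrast, the cluster on chromosome 16 at 81544912 to 81626292 (16q23.2) held 1 NFIC summit, between its SMRC1 peaks, and 0 SATB1 summits. Of the remaining clusters of 13 peaks, that on chromosome 3 at 149071600 to 149133223 (3q25.1) held 4 NFIC summits and 1 SATB1 summit. That on chromosome 2 at 208630007 to 208713710 (2q33.3) held 5 NFIC summits, and that on chromosome 8 at 121820928 to 121881288 (8q24.12) held 4, both with 0 SATB1 summits. Of the 3 clusters with 12 SMRC1 peaks, the one with the highest summed −log10 q, on chromosome 2 at 11482582 to 11530392 (2p25.1), had 5 NFIC summits and 2 SATB1 summits, both at SMRC1 peaks that also had NFIC.

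**Figure D2:**
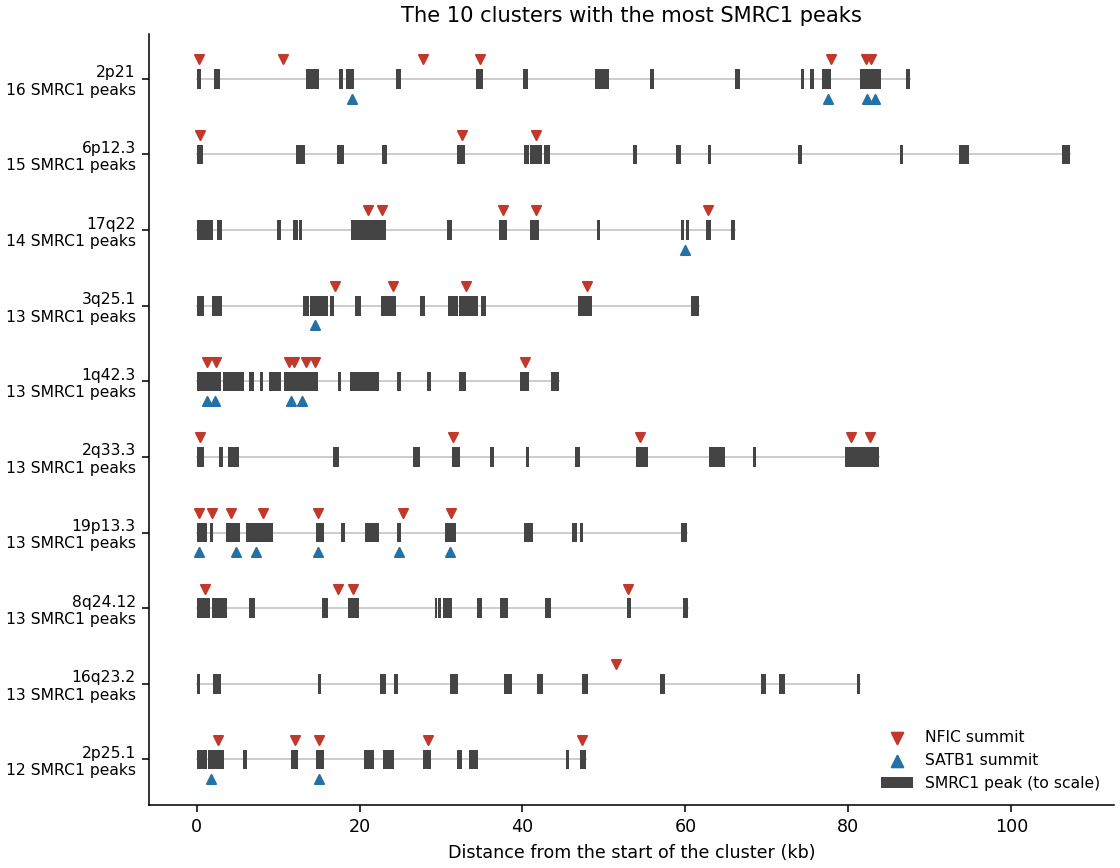
Layout of the 10 clusters with the most SMRC1 peaks (the last is 1 of 3 with 12), each drawn from its start in kb (horizontal axis) with its band and its number of SMRC1 peaks (vertical axis). Grey boxes are SMRC1 peaks to scale, red triangles NFIC summits and blue triangles SATB1 summits; NFIC summits range from 1 in 16q23.2 to 7 in 2p21, 1q42.3 and 19p13.3, and 4 of the 10 clusters have no SATB1 summit.

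Most clusters held NFIC, and about 1 in 3 held SATB1. NFIC and SATB1 peaks come from libraries that the definition of clusters did not use. A peak was counted in a cluster when its summit lay inside. An NFIC summit was present in 479 of 581 clusters (82.4%, interval 79.1 to 85.5), against 48.6% of regions of 2 to 4 peaks and 20.8% of single peaks. Over all joined regions the share was 30.9%. A SATB1 summit was present in 206 clusters (35.5%, 31.6 to 39.5), against 18.4% of regions of 2 to 4 peaks and 8.98% of single peaks, with 12.6% over all joined regions. Both kinds were present in 175 clusters (30.1%, 26.4 to 34.0), against 10.1% and 2.62%, with 5.68% over all. NFIC alone was present in 304 clusters, SATB1 alone in 31 and neither in 71. A longer region with more SMRC1 peaks has more room for a summit, so these shares do not compare like with like.

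**Figure D3:**
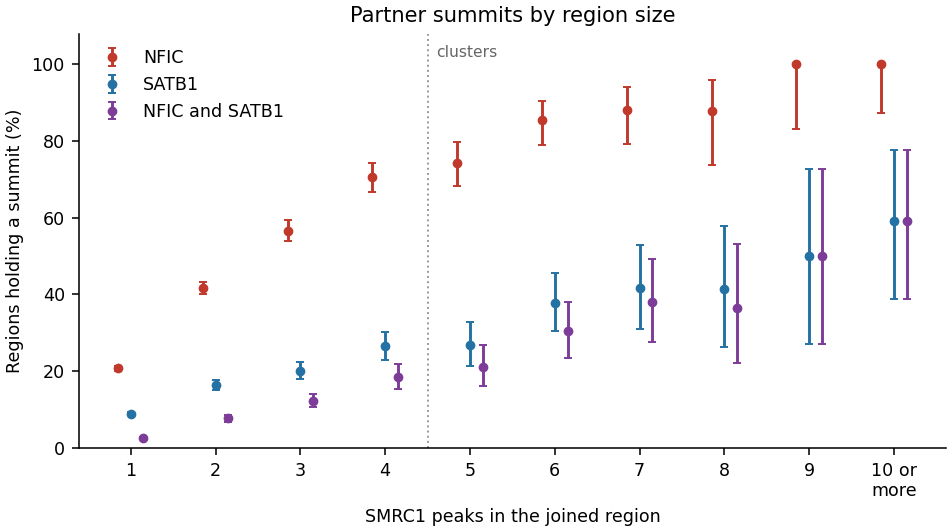
Share of joined SMRC1 regions that hold an NFIC summit (red), a SATB1 summit (blue) or both (purple), by the number of SMRC1 peaks in the region, with exact 95% binomial intervals. Regions right of the dotted line are the clusters; the NFIC share goes up from 20.8% of single peaks to 74.3% of clusters of 5 peaks and 100% of the 27 clusters of 10 or more.

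The number of partner sites per cluster was spread widely. The median cluster held 2 NFIC summits. There were 102 clusters with 0 NFIC summits, 175 with 1, 136 with 2, 89 with 3, 45 with 4 and 34 with 5 or more. For SATB1, 375 clusters had 0 summits, 142 had 1, 37 had 2 and 27 had 3 or more. More SATB1 than NFIC summits were found in 55 clusters. NFIC overlapped at least 50% of the SMRC1 peaks in 87 clusters (15.0%), and 26.5% of the SMRC1 peaks of all clusters together. Neither this count nor that of the 55 clusters is given here for other joined regions, so neither has a reference share. NFIC overlapped every SMRC1 peak in 1 cluster, on chromosome 12 at 101992832 to 102012788 (12q23.2). It had 5 SMRC1 and 5 NFIC peaks over 20.0 kb and was named after its values were seen. Just inside and outside the threshold the shares were close: an NFIC summit was in 74.3% of clusters of 5 peaks and 70.6% of regions of 4 peaks, and a SATB1 summit in 26.9% and 26.5%.

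NFIC summits were most numerous in a cluster on chromosome 1 at 235091210 to 235134618 (1q42.3). It held 8 NFIC summits with folds of 2.45 to 11.6, 10 SMRC1 peaks and 0 SATB1 summits. Of its SMRC1 peaks, 6 overlapped NFIC. The clusters in 2p21, 1q42.3 and 19p13.3 described above followed with 7 NFIC summits each. One of the 5 clusters with 6, on chromosome 17 at 48961608 to 49022475 (17q21.33), again had 0 SATB1 summits. The other 4 clusters with 6 NFIC summits held 0 to 2 SATB1 summits. Local background of SMRC1 peaks had a median of 13.7 in the cluster with 8 NFIC summits and 16 in 17q21.33. It was 12.7 in 2p21, 9.05 in the other 1q42.3 cluster and 8.74 in 19p13.3, against 9.0 for all clustered SMRC1 peaks. The part of background in these NFIC counts was not tested.

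SATB1 summits were most numerous in the 19p13.3 cluster, with 6. In the cluster on chromosome 12 at 46750966 to 46781256 (12q13.11), 4 of 7 SMRC1 peaks overlapped both NFIC and SATB1, and each of its 4 NFIC and 5 SATB1 summits lay at an SMRC1 peak. A cluster on chromosome 20 at 30175474 to 30199043 (20q11.21) had its 5 SATB1 summits in a single SMRC1 peak of 5308 bp, which also held 3 of its 4 NFIC summits. The cluster on chromosome 12 at 125384628 to 125424912 (12q24.31) was laid out differently. Its strongest SMRC1 peak had a fold of 15.2 and carried a SATB1 peak of fold 4.17, while its highest SATB1 fold, 6.99, was at the weaker SMRC1 sites of its far end. Of its 5 SATB1 peaks, 2 overlapped no SMRC1 peak. These 4 clusters thus ranged from SATB1 sites spread over several SMRC1 peaks to sites within 1 wide peak. Next were 5 clusters with 4 SATB1 summits each, among them that in 2p21 and the 1q42.3 cluster of 13 SMRC1 peaks. Local background of SMRC1 peaks had a median of 18 in 20q11.21, 10.3 in 12q24.31, 8.74 in 19p13.3 and 7 in 12q13.11. For all clustered SMRC1 peaks it was 9.0, and the part of background in these SATB1 counts was not tested.

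Clusters without NFIC or SATB1 were small, with at most 8 SMRC1 peaks. The 3 largest of the 71 lay on chromosome 2 at 235884979 to 235914778 (2q37.2), chromosome 3 at 32854549 to 32898868 (3p22.3) and chromosome X at 131614608 to 131639517 (Xq26.2), each with 8 SMRC1 peaks. Their median SMRC1 folds were 4.62, 5.02 and 4.81, above the 3.95 of all clustered SMRC1 peaks. Local background, over which the fold is taken, had medians of 11.6, 5.50 and 4.80 in them, against 9.0 for all clustered SMRC1 peaks. The part of background in these folds was not tested. The highest SMRC1 fold in any cluster, 22.3, was in a cluster of 7 peaks on chromosome 3 at 50329453 to 50362112 (3p21.31), named after its values were seen.

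Counted per SMRC1 peak, clusters and the rest of the list were a few points apart at most. NFIC overlapped 959 of 3618 SMRC1 peaks in clusters (26.5%, 25.1 to 28.0) and 6014 of 25823 outside (23.3%, 22.8 to 23.8), with 23.7% over all SMRC1 peaks. The difference was 3.22 points (1.71 to 4.77). Regions of 2 to 4 peaks had an NFIC share of 24.4% and single peaks 22.1%. There was no step at the threshold, with 25.8% in regions of 4 peaks and 25.4% in clusters of 5. SATB1 overlapped 286 SMRC1 peaks in clusters (7.90%, 7.05 to 8.83) and 2250 outside (8.71%, 8.37 to 9.06), with 8.61% over all. That difference was -0.81 points (-1.71 to 0.18). Clusters of 5 SMRC1 peaks had a SATB1 share of 6.53%. In clusters of 6, 7, 8, 9 and 10 or more peaks it was 8.74%, 8.33%, 8.54%, 8.33% and 8.95%, near the 8.61% over all. Regions of 2 to 4 peaks had 8.20% and single peaks 9.27%. Both proteins overlapped 3.48% of SMRC1 peaks in clusters and 2.95% outside, with 3.02% over all, a difference of 0.53 points (-0.062 to 1.21).

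At SMRC1 peaks of like strength the NFIC difference was smaller and the SATB1 difference larger. SMRC1 peaks were divided into deciles of −log10 q, and shares outside were weighted to the deciles of the clustered peaks. The NFIC share was then 26.5% in clusters and 25.7% outside, a difference of 0.83 points (-0.58 to 2.23), and clusters were higher in 5 of 10 deciles. The SATB1 share was 7.90% in clusters and 9.42% outside, a difference of -1.52 points (-2.46 to -0.58), and clusters were lower in 8 of 10 deciles. The weighted differences were not split by cluster size, and the unweighted SATB1 share was lowest in clusters of 5 peaks. In the highest decile, NFIC overlapped 67.6% of clustered and 65.8% of other SMRC1 peaks, and SATB1 18.6% and 19.2%. Weighting by deciles of local background was added once the data had been seen, and the differences were then 1.35 points for NFIC (-0.17 to 2.88) and -2.47 points for SATB1 (-3.43 to -1.51).

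**Figure D4:**
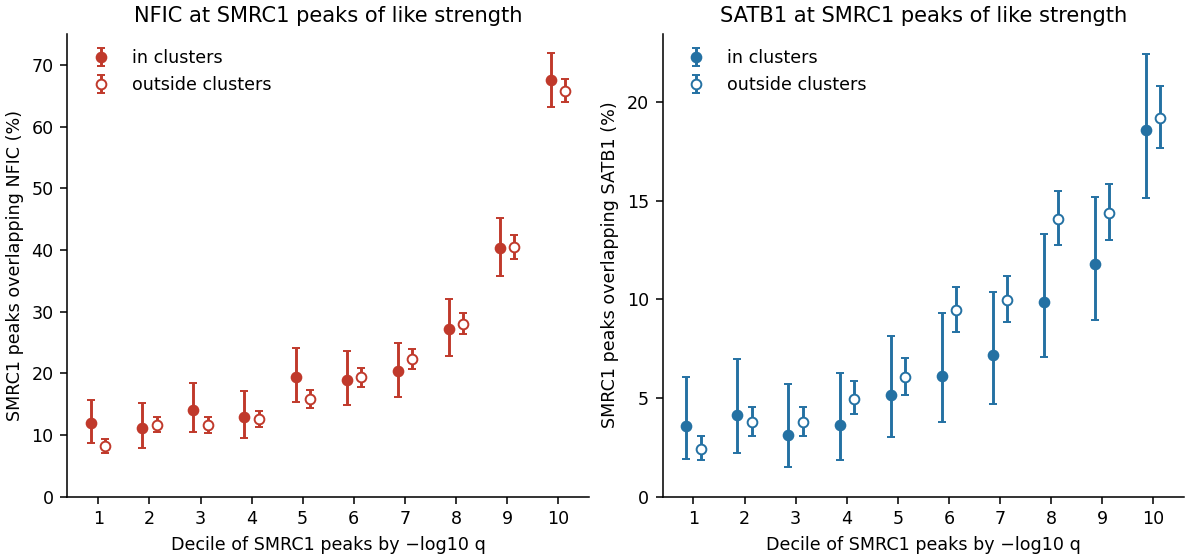
Share of SMRC1 peaks that overlap an NFIC peak (left) or a SATB1 peak (right) by decile of SMRC1 −log10 q, lowest to highest, in clusters (filled) and outside clusters (open), with exact 95% binomial intervals. The NFIC shares of both kinds of peak run together up to 67.6% and 65.8%, and the SATB1 share is lower in clusters in deciles 3 to 10.

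The differences without weighting were larger on chromosomes 2, 6, 14, 16, 17 and 20, a set chosen with their higher background already known. On them the NFIC share was 29.8% in clusters and 25.1% outside, a difference of 4.65 points, against 1.60 points on the other 16 autosomes. The SATB1 difference was -2.04 points on the 6 chromosomes and -0.66 points on the others. These differences are given without intervals, so whether the sets of chromosomes were apart beyond counting error was not tested. Median local background in clusters was 11 on the 6 chromosomes and 8 on the others. The part of background or copy number in the differences was not tested.

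Within clusters, NFIC and SATB1 were found most often at the strongest SMRC1 peak, where strength is the −log10 q that SMRC1 itself gave. NFIC overlapped 314 of the 581 strongest peaks (54.0%, 49.9 to 58.2), 23.2% of those in between and 75 of the 581 weakest (12.9%, 10.3 to 15.9). SATB1 overlapped 14.6% of the strongest (11.9 to 17.8), 7.29% of those in between and 3.79% of the weakest (2.39 to 5.68). The weakest peaks were also the narrowest, and the part of width in these shares was not tested. A rise with SMRC1 strength was not particular to clusters. Outside them, NFIC overlapped 8.17% of SMRC1 peaks in the lowest decile of −log10 q and 65.8% in the highest, and SATB1 2.40% and 19.2%. Within clusters, inner and outermost peaks had close shares. NFIC overlapped 26.4% of inner and 26.7% of outermost SMRC1 peaks, and SATB1 8.06% and 7.57%.

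NFIC and SATB1 overlapped a common SMRC1 peak in most clusters that held both. Of those 175 clusters, 101 (57.7%) had at least 1 SMRC1 peak that overlapped both, and 74 had none. The matching count for the 546 regions of 2 to 4 peaks that held both is not given here, so the 57.7% has no reference share. SATB1 overlapped 13.1% of the clustered SMRC1 peaks that had NFIC (11.1 to 15.4) and 6.02% of those that did not (5.14 to 6.99). Outside clusters these shares were 12.7% and 7.51%.

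NFIC and SATB1 peaks lying in clusters sat mostly on SMRC1 sites. The clusters held 1078 NFIC peaks (7.90% of the NFIC list) and 311 SATB1 peaks (9.44% of the SATB1 list). Of the NFIC peaks, 972 overlapped an SMRC1 peak in clusters (90.2%, 88.2 to 91.9), against 48.6% outside. Of the SATB1 peaks, 293 did so in clusters (94.2%, 91.0 to 96.5), against 76.8% outside. Regions of 2 to 4 peaks held 3509 NFIC peaks, of which 290 overlapped no SMRC1 peak, and 1135 SATB1 peaks, of which 44 overlapped none. In clusters the matching numbers were 106 of 1078 and 18 of 311. A high share on SMRC1 sites was therefore not particular to clusters. SMRC1 peaks occupy 17.1% of cluster sequence, so a larger share on SMRC1 sites follows in part from the definition of clusters. Summits of overlapping peaks were a median of 93 bp apart for NFIC and SMRC1 in clusters and 84 bp outside. For SATB1 and SMRC1 the medians were 108 and 83 bp.

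Between the SMRC1 peaks of clusters, the density of partner sites was compared with that around the clusters. In the 14 Mb of clusters outside SMRC1 peaks there were 106 NFIC peaks that overlapped no SMRC1 peak, or 7.59 per Mb (6.21 to 9.18). In the 50 kb on either side of clusters the density was 7.78 per Mb (7.05 to 8.56), a ratio of 0.98 (0.78 to 1.21). With a joining gap of 5000 bp this ratio was 0.62. The nearest 12.5 kb, which by definition hold no SMRC1 peak, had 9.38 per Mb (7.86 to 11.1). In regions of 2 to 4 peaks the density was 7.78 per Mb, and 2.14 per Mb over the genome. SATB1 had 18 such peaks in clusters, or 1.29 per Mb (0.76 to 2.04), against 1.26 per Mb in the flanks, a ratio of 1.03 (0.57 to 1.74). The SATB1 ratio was 0.15 with a minimum of 8 SMRC1 peaks, 0.43 with SMRC1 peaks of a −log10 q of at least 10, and 2.91 with NFIC and SATB1 peaks of at least 10. Over the genome SATB1 had 0.231 such peaks per Mb. A partner site within the width of an SMRC1 peak counts as overlapping, which lowers the density close to those peaks.

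**Figure D5:**
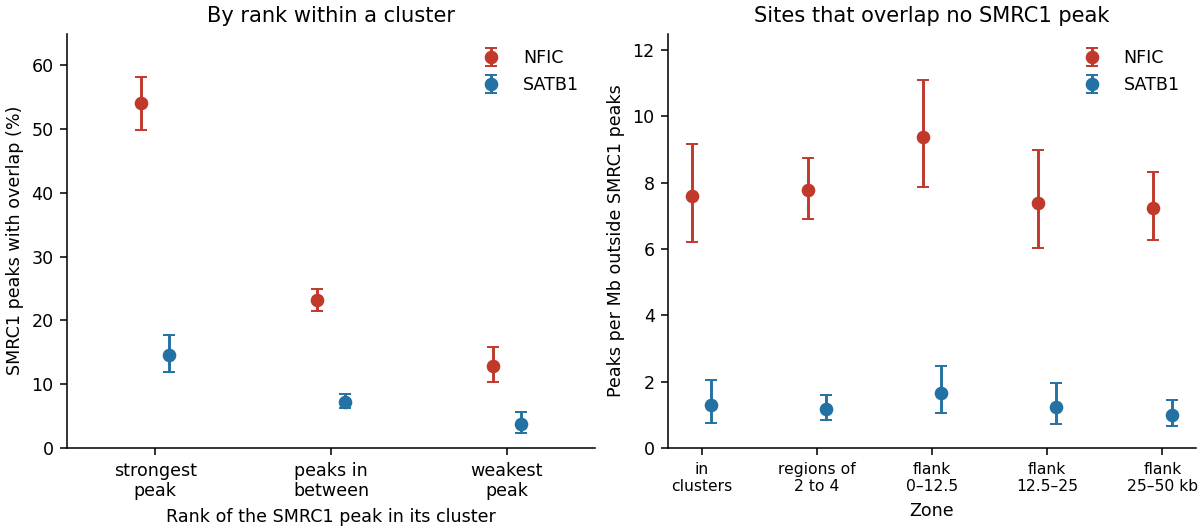
Left, share of SMRC1 peaks that overlap NFIC (red) or SATB1 (blue) for the strongest peak by −log10 q, the peaks in between and the weakest peak of each cluster, with exact 95% binomial intervals. Right, NFIC and SATB1 peaks that overlap no SMRC1 peak per Mb outside SMRC1 peaks, in clusters, in regions of 2 to 4 peaks and in 3 flanking zones, with exact Poisson intervals; NFIC has 7.59 in clusters and 9.38 in the nearest flank.

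NFIC peaks in clusters had a lower fold and a higher local background than those elsewhere. Their median fold was 3.97 in clusters (3.86 to 4.07) and 4.97 outside (4.92 to 4.97), a ratio of 0.80. Among NFIC peaks at SMRC1 sites alone the medians were 3.88 in clusters (3.77 to 3.97) and 4.24 outside (4.19 to 4.30). For the same peaks, the recovered summit reads had medians of 42.1 in clusters and 38.1 outside, and the recovered background 10.0 and 8.46. Median −log10 q of these peaks was 9.50 in clusters and 9.84 outside, with overlapping intervals. SATB1 peaks differed less, with a median fold of 3.37 in clusters (3.27 to 3.49) and 3.55 outside (3.51 to 3.60), and a median background of 9.21 and 8.40. At SMRC1 sites alone the SATB1 medians were 3.34 in clusters (3.23 to 3.46) and 3.43 outside (3.38 to 3.48), with overlapping intervals. The part of background in the lower folds was not tested. Among the 100 NFIC peaks with the highest −log10 q, 17 lay in clusters (17%, 10.2 to 25.8), against 7.90% of the list. For SATB1 it was 11 of 100 (5.62 to 18.8), against 9.44%.

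Clusters were unevenly spread over the chromosomes. Chromosome 17 had the highest density, with 55 clusters (6.77 per 10 Mb), and 22.5% of its SMRC1 peaks lay in them. Chromosome 19 followed with 4.90 per 10 Mb, chromosome 22 with 3.90 and chromosome 20 with 3.65. Chromosome 2 had the most clusters, 62 (2.55 per 10 Mb). The sparsest were chromosome X with 5 clusters (0.322 per 10 Mb) and chromosome 4 with 11 (0.575). All SMRC1 peaks, whose positions define the clusters, were themselves unevenly spread. They numbered 20.3 per Mb on chromosome 17, 19.1 on 19, 12.1 on 22 and 15.7 on 20. On chromosomes X and 4 there were 4.37 and 6.14 SMRC1 peaks per Mb. Counted per 1000 protein-coding genes the order changed, with 55.6 on chromosome 18, 49.4 on chromosome 2, 47.0 on chromosome 17 and 20.0 on chromosome 19. Chromosomes 2, 6, 14, 16, 17 and 20, which had a higher background, held 3.13 clusters per 10 Mb and 43.3 per 1000 genes. The other 16 autosomes held 1.60 and 24.8. All SMRC1 peaks numbered 12.6 per Mb on the former and 9.03 on the latter. Median local background of SMRC1 peaks outside clusters was 10 on the former and 7 on the latter. The part of SMRC1 peak density, background or copy number in the spread of clusters was not tested. Giemsa-unstained bands, which tend to be gene-rich, held 60.6% of clusters on 42.2% of the genome, and the darkest bands 4.65% on 16.1%. SMRC1 peaks outside clusters had a similar order, with 58.2% in unstained and 7.04% in the darkest bands.

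Some chromosome bands held several clusters. Bands 17q25.3 and 19p13.3 had 8 clusters each, with 16 and 20 NFIC summits and 11 and 13 SATB1 summits. Bands 17q21.31 and 3p21.31 had 6 each. Of these, 17q21.31 held 18 NFIC and 6 SATB1 summits over 41 SMRC1 peaks, and 3p21.31 held 7 and 2 over 37. Bands 10q25.2 and 3p14.3, named after their values were seen, had 5 clusters and 0 SATB1 summits each. They held 29 and 36 SMRC1 peaks, with 10 and 8 NFIC summits. Over all clusters SATB1 overlapped 7.90% of SMRC1 peaks. Neighbouring clusters were a median of 1.85 Mb apart, and 58 of 558 neighbouring pairs lay within 100 kb of each other. SMRC1 summits were also frequent around clusters. In the zone 12.5 to 25 kb away there were 41.3 per Mb around clusters, 30.4 around regions of 2 to 4 peaks and 20.6 around single peaks.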

How the data were processed

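ChIP-seq peak lists of HepG2 cells were used, 1 library per antibody. The submitters' processing notes name Bowtie 1.1.2, MACS2 2.1.1, SAMtools and deepTools, with hg19 as the build, and the sources used here do not give their settings or the control. The lists have no header and follow the narrowPeak layout, and the lowest −log10 q is just above 1 in each. The deposited −log10 p and −log10 q and the deposited fold, a ratio of summit reads to local background, are the authors' peak caller's own values. The deposited score is the integer part of 10 times the −log10 q in all but 2 SMRC1 peaks.

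Peaks overlapped when they shared 1 bp. Summit reads and background were solved from the fold and the Poisson p-value in 99.8% of SMRC1, 98.7% of NFIC and 99.9% of SATB1 peaks. Shares have exact Clopper-Pearson intervals, differences of shares Newcombe intervals, decile-weighted differences intervals from the binomial variance within deciles, medians binomial order-statistic intervals, and densities exact Poisson intervals. Joining, overlap and recovery were tested on simulated peaks with known answers. Positions count from 1. GenomeInfoDb 1.38.1 gave the chromosome lengths, circlize 0.4.16 the bands, and RefSeq's GRCh38.p14 table the numbers of protein-coding genes. The scripts used matplotlib 3.10.9, scipy 1.17.1, pandas 2.3.3, statsmodels 0.14.6, numpy 2.4.6 and Python 3.11.15.

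Named clusters were the 10 with the most SMRC1 peaks, the 5 with the most NFIC and the 5 with the most SATB1 summits, and the 3 largest with neither. Ties, which decided the last place by SMRC1, NFIC and SATB1, were broken by more SMRC1 peaks and then by the higher summed −log10 q. The definition of clusters, the gene lists and the settings were chosen with earlier results of these data known. The planned gene lists and motif search needed an hg19 annotation and sequence and were not run, so no cluster was assigned to a gene and no sequence is shown. Other settings tried were the joining gap, the minimum number of peaks, the −log10 q of each list, the overlap, the chromosomes used, and weighting by strength or background.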

Additional observations from a re-analysis of the deposited data

How the results depend on the processing

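No paired analysis was possible because each antibody had 1 library. Of 126 values recomputed over 15 results and 11 settings, 62 stayed within the interval (counts within 1.5 times) of the reported value and 64 did not; 0 differences whose interval lay clear of no difference changed sign. The settings that redefine clusters move counts by construction; other causes were not tested. With a joining gap of 5000 bp there were 121 clusters with 674 SMRC1 peaks, of which 76.9% held NFIC and 31.4% SATB1. They took 1.31% of the NFIC and 1.64% of the SATB1 list. The NFIC difference per SMRC1 peak was 0.51 points and its density ratio between peaks 0.62. Median folds relative to outside were 0.77 for NFIC and 0.99 for SATB1, and the median −log10 q of NFIC 0.92 times that outside. With 25000 bp there were 1253 clusters with 8975 SMRC1 peaks, of which 87.1% held NFIC, 39.5% SATB1 and 35.9% both. They took 21.1% and 24.0% of the NFIC and SATB1 lists, with an NFIC fold ratio of 0.82. A minimum of 4 peaks gave 1180 clusters with 6014 SMRC1 peaks, with 76.4%, 30.9% and 24.2% holding NFIC, SATB1 and both, and 12.9% and 15.5% of the NFIC and SATB1 lists. A minimum of 8 gave 88 clusters with 821 SMRC1 peaks, 94.3%, 48.9% and 46.6% holding NFIC, SATB1 and both, 1.87% and 2.28% of the lists, and a SATB1 density ratio of 0.15. With SMRC1 peaks of a −log10 q of at least 10 there were 54 clusters with 306 peaks, 94.4% holding NFIC and 37.0% both, and 1.14% and 1.06% of the lists. The differences were then 5.94 points for NFIC and -4.00 for SATB1, the SATB1 density ratio 0.43, the fold ratios 0.73 and 0.88, and the −log10 q ratios 0.90 and 0.83. With NFIC and SATB1 peaks of a −log10 q of at least 10, 55.4% of clusters held NFIC, 7.75% SATB1 and 3.79% both. The NFIC difference was 1.65 points, the SATB1 density ratio 2.91 and the share of the SATB1 list 11.6%. Without chromosomes 2, 6, 14, 16, 17 and 20 there were 344 clusters with 2088 SMRC1 peaks, 77.3% holding NFIC and 24.4% both, and 6.28% and 8.10% of the lists. The NFIC difference was 1.64 points and its fold ratio 0.83. Weighting by strength gave 0.83 points for NFIC, and weighting by background, chosen after seeing the data, 1.35 points for NFIC and -2.47 for SATB1. The SATB1 difference without weighting was 0.035 points with a minimum of 8 peaks and 0.074 with strong NFIC and SATB1 peaks, its interval under the reported setting including 0. Depth is unknown, and 18 SATB1 peaks between SMRC1 peaks leave that density wide.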
